A study of Zea mays with 18 samples.

Results

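Aquaporins, the channel proteins that carry water and some small solutes across membranes, were followed in maize (Zea mays) endosperm of the opaque2 (o2) mutant and the wild type. A clone was taken as an aquaporin clone where the symbol or a synonym of its gene began with PIP, TIP, NIP or SIP and a digit. This gave 12 cDNA clones of 9 genes, out of 489 named clones of 370 genes. The named clones are 6.55% of the 7466 clones measured, so aquaporin cDNAs without a gene name on this array were not analysed here. By subfamily, 8 clones of 5 genes were PIPs, 2 clones of 2 genes NIPs and 2 clones of 2 genes SIPs. No named clone (0 of 489) carried a TIP name.

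The protein made from o2 is a bZIP regulator that switches on zein storage protein genes in endosperm, and kernels that lack it are soft and opaque. Endosperm was collected 14 days after pollination and poly(A) RNA was compared on 2-colour arrays between o2 and wild type in 3 comparisons: the inbred line B46 carrying o2 against wild-type B46, M14 carrying o2 against wild-type M14, and a mixed pool of o2 lines against a mixed pool of wild-type lines. The pools took in 8 lines, A619, B14A, B45, B46, B57, B66, B73 and M14, so the pooled comparison holds both inbreds too. Which mutant allele of o2 the lines carry, and how far each o2 line is otherwise identical to its wild type, is not given in the sources used here. Every comparison rested on 3 independent sample pairs, each run on 2 arrays with Cy3 and Cy5 exchanged. The 2 arrays of such a dye swap count as 1 replicate, so n = 3 in each comparison and 9 in the average. Whether the independent samples came from separate plants or ears is not given in the sources used here.

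Plant aquaporins fall into subfamilies. Plasma membrane intrinsic proteins (PIPs) carry water across the cell surface; in maize, PIP1 proteins reach the plasma membrane when they are made together with PIP2 proteins, and PIP2 proteins are the active water channels when expressed alone in frog oocytes. Nodulin 26-like intrinsic proteins (NIPs) also pass silicic acid or boric acid, and small basic intrinsic proteins (SIPs) sit in the endoplasmic reticulum in Arabidopsis. In growing endosperm, water and solutes arrive through the basal transfer layer and move from cell to cell while the starchy cells fill.

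The values are log ratios of o2 over wild type. Their base is not stated; it could be base 2 or the natural log. They give no levels, so no aquaporin's abundance can be set against another's, and the presence of endosperm markers could not be checked by level. The direction of the ratio is likely, not settled. The design names wild type first, and the values of z1C1_12 and pdk1, known targets of o2, were also looked at. On this basis each array was taken to hold wild type over o2, and the sign was turned. The arrays of a dye swap correlated below 0 over all clones (r between -0.35 and -0.018). The lowest r between arrays that both carried wild type on Cy5 was -0.34, between M14 replicate 1 and mixed replicate 1. Averages turned instead by the labelled dyes are therefore given beside the results. In tissue samples, fewer cells of a type and less RNA per cell cannot be told apart.

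The targeted gene itself, o2, averaged -0.42 ± 0.074 log units (SE, n = 9; limma adjusted p = 0.015), below 0 in each replicate, and -0.084 when turned by the labelled dyes. The median absolute deviation of a replicate's values over all clones ranged from 0.19 to 0.43 log units and was lowest in M14 replicate 3 and mixed replicate 3. The mutant's hallmark, the 22-kDa zein gene z1C1_12, averaged -2.25, and -0.084 when turned by the labelled dyes. The pdk1 clone averaged -1.07, and -0.12 when turned. Over all clones, 8.02% had 1 sign in all 9 replicates as read, and 0.268% when turned. Since z1C1_12 and pdk1 helped to set the direction, their signs are not independent evidence of it.

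Of the 12 aquaporin clones, 1 passed the test in the average over the 3 comparisons, the SIP1-1 clone, which was lower in o2 endosperm. Over all clones 6.91% passed in the average, 4.94% lower and 1.97% higher, so 1 of 12 is near the background. No aquaporin clone passed in B46, where 4.57% of all clones did (3.66% lower and 0.911% higher). None passed in M14 or in the mixed lines, where the share of all clones was 0%. At an unadjusted limma p under 0.05 the counts were 3 of 12 in B46 (18.4% of all clones), 1 in M14 (12.3%), 2 in the mixed lines (9.28%) and 4 in the average (21.5%). The median over the 12 clones was -0.0070 log units in B46, -0.042 in M14, 0.063 in the mixed lines and 0.034 in the average, against 0.0068, -0.0023, -0.013 and 0.0057 over all clones. Turned by the labelled dyes, no aquaporin clone passed in any comparison, where 0.067% of all clones did in B46 and 0% in the others; the medians over the 12 clones were then 0.050, 0.19, -0.10 and 0.046. An unadjusted limma p under 0.05 was then found for 1 clone in B46 (14.7% of all clones), 1 in M14 (12.6%), 0 in the mixed lines (6.68%) and 1 in the average (6.64%).

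**Figure D1:**
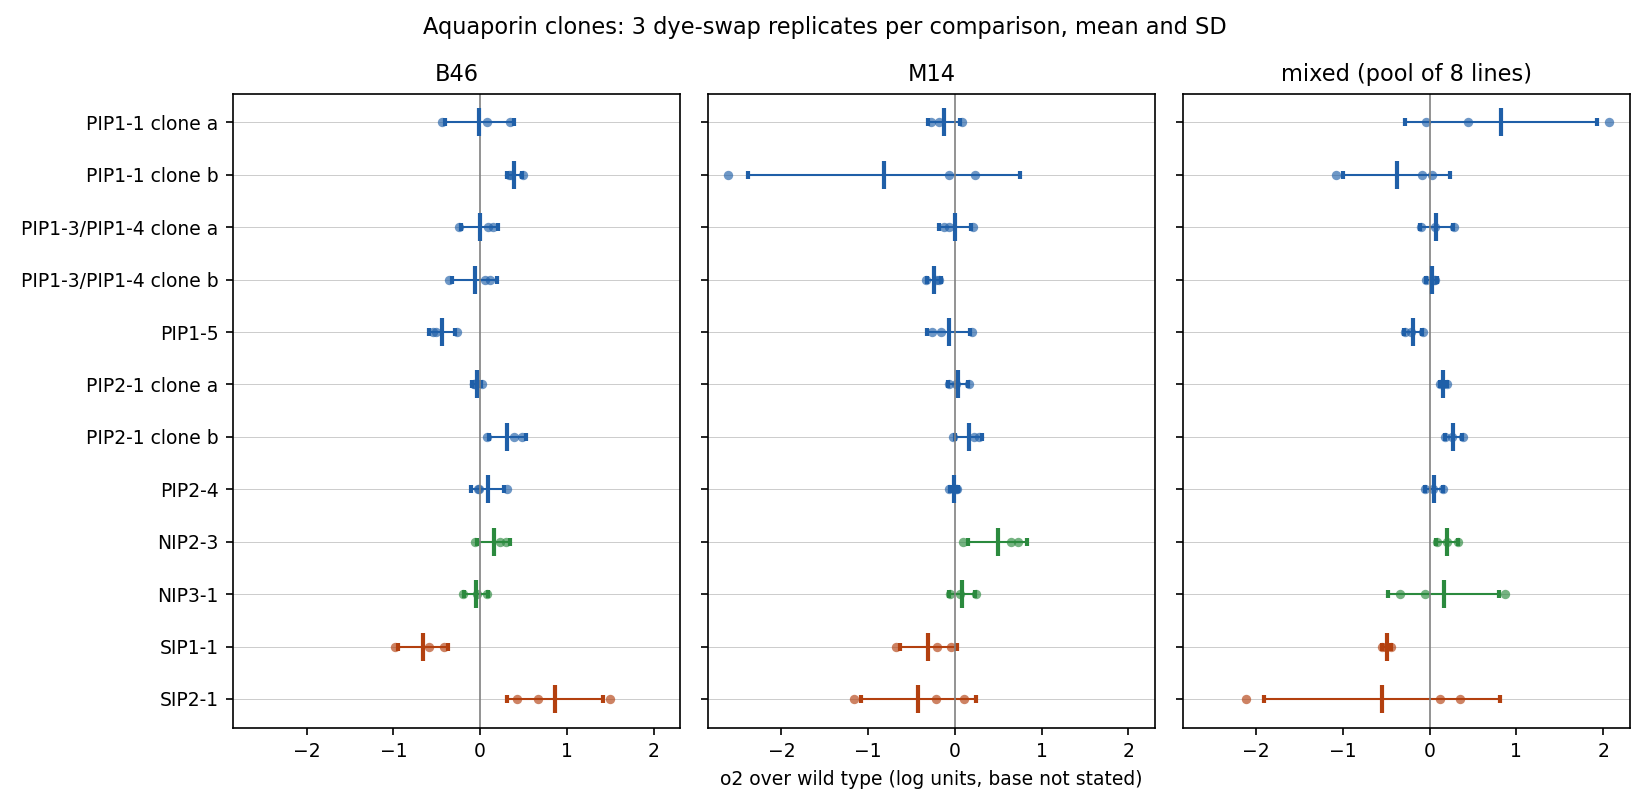
Log ratio of o2 over wild type (log units, base not stated) for each of the 12 aquaporin clones in B46, M14 and the mixed pool of 8 lines. Points are the 3 dye-swap replicates, the tall tick is their mean and the bar 1 SD; colours mark PIP, NIP and SIP. SIP1-1 lies below 0 in all 9 replicates, and the widest spreads are those of SIP2-1 and the PIP1-1 clones.

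The small basic intrinsic proteins had 1 clone for each of 2 genes. SIP1-1 (LOC542494, also listed as SIP1A) stood at -0.41, -0.59 and -0.98 log units in B46, at -0.21, -0.67 and -0.04 in M14, and at -0.50, -0.44 and -0.55 in the mixed lines. Every replicate was below 0, and the mixed replicates lay closest together while M14 held both a replicate near 0 and one past -0.6. Single arrays were below 0 in 17 of 18 cases; the one above 0 was M14 replicate 3 with o2 on Cy5 (0.04).

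The average for SIP1-1 was -0.49 ± 0.085 log units (SE, n = 9; 95% interval -0.69 to -0.29; limma adjusted p = 0.0146). This is 1.40-fold lower in o2 than in wild type if the logs are base 2, and 1.63-fold if they are natural. Of all clones, 5.64% had a lower average than SIP1-1, and 5.28% were below 0 in all 9 replicates. By comparison, SIP1-1 had means of -0.66 ± 0.29 for B46, -0.31 ± 0.33 for M14 and -0.50 ± 0.051 for the mixed lines (SD, n = 3 each). Of these, B46 narrowly missed the threshold (limma adjusted p = 0.0502), and M14 and the mixed lines did not pass (limma adjusted p = 0.456 and 0.349). The fall is tied to the direction of the ratio. With the labelled dyes instead, the average of SIP1-1 was 0.046 (95% interval -0.18 to 0.27; limma adjusted p = 0.896), with 3 of 9 replicates below 0.

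The other SIP gene, SIP2-1 (LOC542646), did not share this pattern. Its clone stood at 0.42, 1.49 and 0.67 log units in B46, at -0.21, -1.17 and 0.11 in M14, and at 0.12, -2.12 and 0.35 in the mixed lines. All 3 B46 replicates were above 0, and the second replicates of M14 and of the mixed lines were far below. The average was -0.038 (95% interval -0.69 to 0.61; limma adjusted p = 0.959), which leaves room for a change of the size of SIP1-1's in either direction; by the labelled dyes it was 0.37 (-0.53 to 1.26). SIP2-1 also had the widest gap among aquaporin clones between the arrays of a dye swap in values as read, with a median of 2.53 log units over the 9 pairs; 3.0% of all clones had a larger one. In mixed replicate 2 its arrays read 1.00 with o2 on Cy5 and -5.23 with o2 on Cy3, a gap of 6.22. The mean in the mixed lines was 0.23 without that replicate, against -0.55 with it.

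Both arrays of a pair received the same RNA samples with the dyes exchanged. If the ratio was read in the right direction, the gap between them holds scatter between arrays and any dye effect of the clone. These parts were not separated, so the gap does not measure repeatability alone. For SIP1-1 the median gap as read was 0.236 log units, and 81.7% of all clones had a larger one, against a median of 0.480 over all clones. Turned by the labelled dyes, the median gap was 0.995 for SIP1-1, larger than 0.849 for SIP2-1, against 0.434 over all clones. The order of these clones by gap thus depends on the direction. The turned gap of a pair is the size of the sum of its arrays as read. A clone with large replicate values as read therefore has a large turned gap by construction. The turned gaps are no separate look at repeatability or direction. The largest gap of SIP1-1 as read was 1.09, in B46 replicate 3, where the array with o2 on Cy5 read -0.44 and the one with o2 on Cy3 read -1.52. Without that replicate the average was -0.44 (limma adjusted p = 0.0295) and the B46 mean -0.50.

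**Figure D2:**
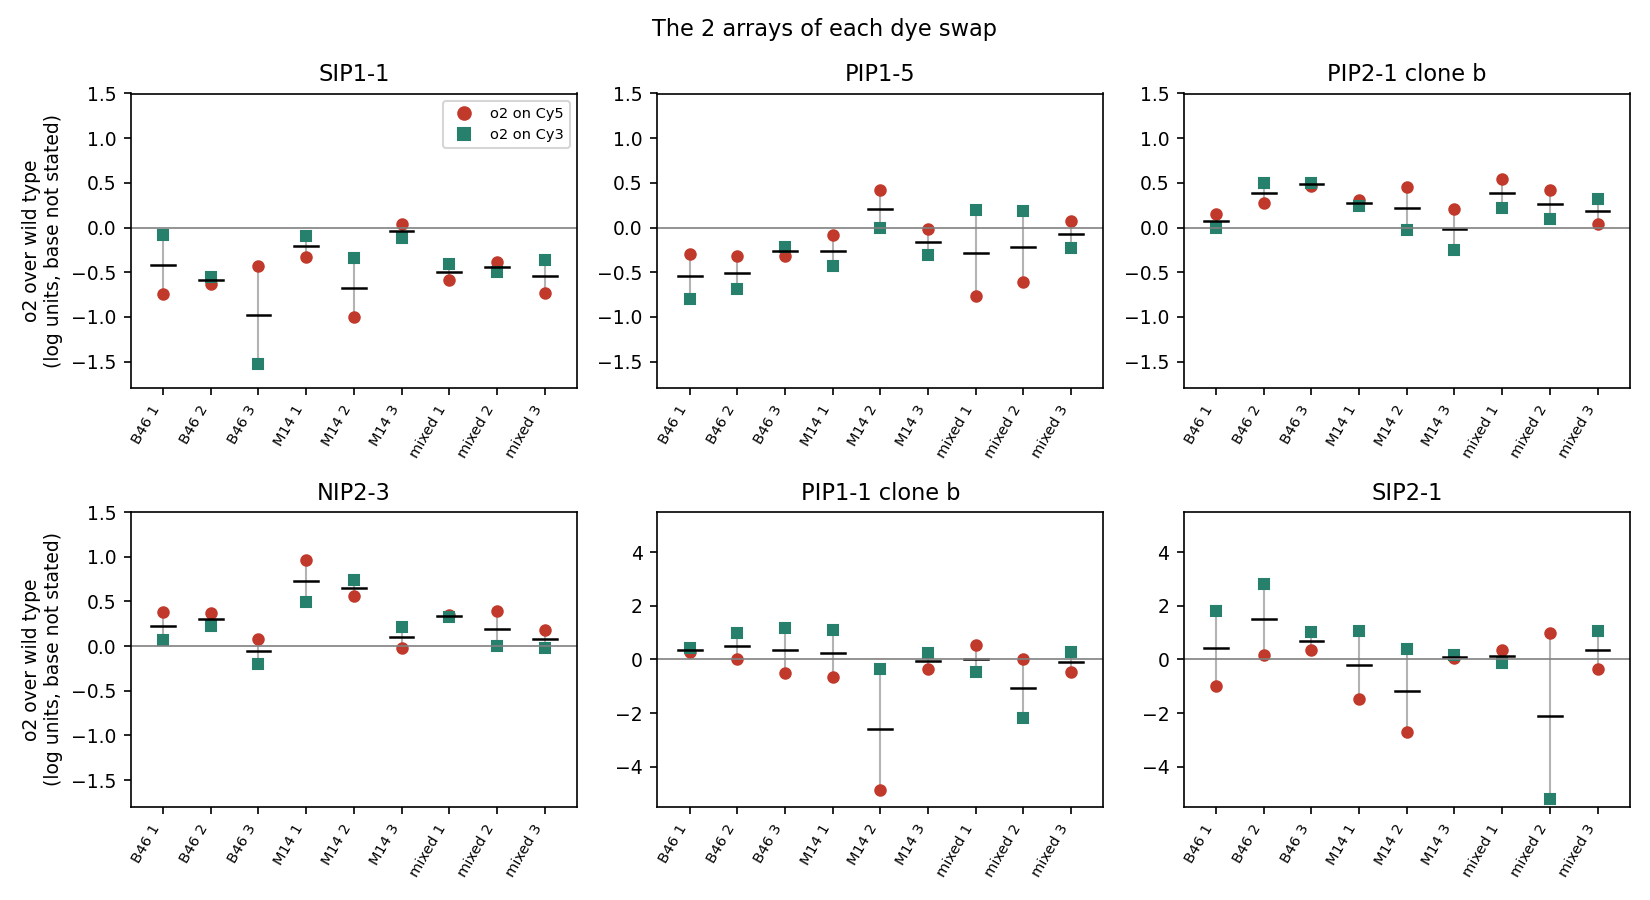
Log ratio of o2 over wild type (log units, base not stated) on the single arrays, for 6 aquaporin clones. Circles are arrays with o2 on Cy5, squares arrays with o2 on Cy3, and the short line their mean; the last 2 panels have a wider axis. SIP1-1 is below 0 on 17 of 18 arrays, while PIP1-1 clone b and SIP2-1 have dye-swap arrays up to 4.55 and 6.22 log units apart.

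The PIP1 group held 5 clones of 3 genes, and none passed the test in any comparison. PIP1-5 (LOC542014) had -0.55, -0.51 and -0.27 log units in B46, -0.26, 0.20 and -0.16 in M14, and -0.28, -0.21 and -0.08 in the mixed lines. It was below 0 in 8 of 9 replicates, M14 replicate 2 being the exception, and on 14 of 18 arrays. Its average was -0.23 ± 0.065 (SE, n = 9; 95% interval -0.39 to -0.084; limma adjusted p = 0.0813). The mean in B46 was -0.44 ± 0.15 (SD, n = 3; limma adjusted p = 0.0781), beside -0.07 ± 0.24 for M14 and -0.19 ± 0.11 for the mixed lines. By the labelled dyes its average was -0.022. Without M14 replicate 2 the average was -0.28 and passed (limma adjusted p = 0.0462). Leaving out other single replicates moved it away from the threshold, to a limma adjusted p of up to 0.193.

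PIP1-1 (LOC542434), a water channel family member that is inactive alone in oocytes, was measured by a pair of clones that did not move together. Clone a had 0.07, 0.34 and -0.44 log units in B46, 0.08, -0.27 and -0.19 in M14, and -0.04, 2.07 and 0.44 in the mixed lines. Clone b had 0.35, 0.50 and 0.34 in B46, 0.23, -2.61 and -0.07 in M14, and 0.03, -1.08 and -0.09 in the mixed lines. In mixed replicate 2 the clones of this gene lay on opposite sides of 0 by more than 1 log unit each. Their averages were 0.23 (95% interval -0.26 to 0.72; limma adjusted p = 0.575) for clone a and -0.27 (-0.95 to 0.41; 0.651) for clone b. The dye turn gave 0.089 for clone a and 0.40 (-0.14 to 0.94; 0.730) for clone b. The reading of clone b in M14 rested on replicate 2, where its arrays read -4.89 with o2 on Cy5 and -0.34 with o2 on Cy3. That of clone a in the mixed lines, a mean of 0.82, also rested on replicate 2, without which it was 0.20. Without M14 replicate 2 the M14 mean of clone b was 0.08, against -0.82 with it, and its average 0.03. The clones had an RMS difference of 1.35 log units over the 9 replicates and the same sign in 5 of them (1.05 and 6 by the labelled dyes).

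The third PIP1 gene carries both names, PIP1-3 and PIP1-4 (LOC541886), and its clones lay closer together. Clone a had -0.25, 0.09 and 0.15 log units in B46, 0.21, -0.13 and -0.07 in M14, and -0.10, 0.28 and 0.06 in the mixed lines. Clone b had -0.36, 0.12 and 0.06 in B46, -0.33, -0.18 and -0.21 in M14, and 0.07, -0.05 and 0.06 in the mixed lines. Both clones changed sign between replicates in B46, and clone b was below 0 in all 3 M14 replicates. The averages were 0.03 (95% interval -0.14 to 0.19) for clone a and -0.09 (-0.24 to 0.05) for clone b, limma adjusted p = 0.878 and 0.422. Turned, they were 0.19 for clone a (0.018 to 0.37; limma adjusted p = 0.719) and 0.046 for clone b. The M14 mean of clone b, -0.24 ± 0.079 (SD, n = 3), did not pass (limma adjusted p = 0.414). The clones had the same sign in 6 of 9 replicates and an RMS difference of 0.230; by the labelled dyes these were 8 of 9 and 0.532. As read, each clone had an SD of 0.18 over the 9 replicates. The small RMS difference therefore does not show that they moved together.

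The PIP2 group held 3 clones of 2 genes, water channels of the plasma membrane, and all 3 averages were above 0 without passing the test. PIP2-1 (LOC541888) clone b had 0.07, 0.38 and 0.48 log units in B46, 0.28, 0.22 and -0.02 in M14, and 0.38, 0.26 and 0.18 in the mixed lines. It was above 0 in 8 of 9 replicates and on 15 of 18 arrays. Its average was 0.25 ± 0.062 (SE, n = 9; 95% interval 0.10 to 0.39; limma adjusted p = 0.0571), 1.19-fold higher in o2 for base 2 and 1.28-fold for natural logs. This average was -0.071 when turned by the labelled dyes. Without B46 replicate 1 the average was 0.29 and passed (limma adjusted p = 0.0464). When other single replicates were left out, the limma adjusted p rose to as much as 0.155.

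Clone a of PIP2-1 stayed near 0. It had -0.07, -0.07 and 0.02 log units in B46, 0.01, 0.16 and -0.06 in M14, and 0.12, 0.15 and 0.20 in the mixed lines, with an average of 0.05 (95% interval -0.05 to 0.15; limma adjusted p = 0.554), and 0.0021 by the labelled dyes. Its values in the mixed lines were all above those in B46, and the difference, B46 minus mixed, was -0.20 (-0.45 to 0.06; limma adjusted p = 0.907). Both PIP2-1 clones were above 0 in all 3 mixed replicates. They had the same sign in 7 of 9 replicates and an RMS difference of 0.259 (7 of 9 and 0.139 by the labelled dyes). For scale, in values as read 147 pairs of clones from 91 other named genes had a median RMS difference of 0.457, with quartiles of 0.293 and 0.930. The PIP1-1 pair lay above the upper quartile, and the pairs of PIP1-3/PIP1-4 and PIP2-1 below the lower one. An RMS difference is also small where both clones stay near 0, so this order is not one of shared movement.

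PIP2-4 (LOC541890) showed the smallest average in size among the single-clone PIP genes. Its clone had -0.02, -0.02 and 0.31 log units in B46, 0.02, 0.01 and -0.06 in M14, and 0.15, 0.04 and -0.05 in the mixed lines. Only B46 replicate 3 was beyond 0.2 in size. The average was 0.068 by the labelled dyes and 0.04 as read (95% interval -0.08 to 0.17; limma adjusted p = 0.704), an interval that does not reach the size of the SIP1-1 average.

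The NIP genes had 1 clone each. NIP2-3 (LOC542497), listed under the synonym Lsi6 after a silicic acid channel of rice, had 0.23, 0.30 and -0.06 log units in B46, 0.73, 0.65 and 0.10 in M14, and 0.33, 0.19 and 0.08 in the mixed lines. It was above 0 in 8 of 9 replicates, and M14 replicates 1 and 2 were higher than every replicate of the other comparisons. The average was 0.28 ± 0.080 (SE, n = 9; 95% interval 0.096 to 0.47; limma adjusted p = 0.0892), 1.22-fold higher in o2 for base 2 and 1.33-fold for natural logs. For NIP2-3 the means were 0.16 ± 0.19 (B46), 0.49 ± 0.34 (M14) and 0.20 ± 0.13 (mixed; SD, n = 3 each; limma adjusted p = 0.623, 0.283 and 0.693). With the dyes as labelled, it averaged -0.078. Without M14 replicate 3 the average was 0.35 and passed (limma adjusted p = 0.0261). Other single replicates left out gave a limma adjusted p of up to 0.211.

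NIP3-1 (LOC541885), in maize a boric acid channel needed for normal tassels and ears, had -0.04, 0.08 and -0.19 log units in B46, -0.05, 0.25 and 0.06 in M14, and -0.05, 0.87 and -0.34 in the mixed lines. No comparison had all replicates on one side of 0. The highest value, in mixed replicate 2, came from arrays that read 1.52 with o2 on Cy5 and 0.23 with o2 on Cy3; without it the average was -0.05, against 0.06 with it and 0.011 by the labelled dyes. Its median gap as read, 0.137, was smaller than that of 95.7% of all clones.

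**Figure D3:**
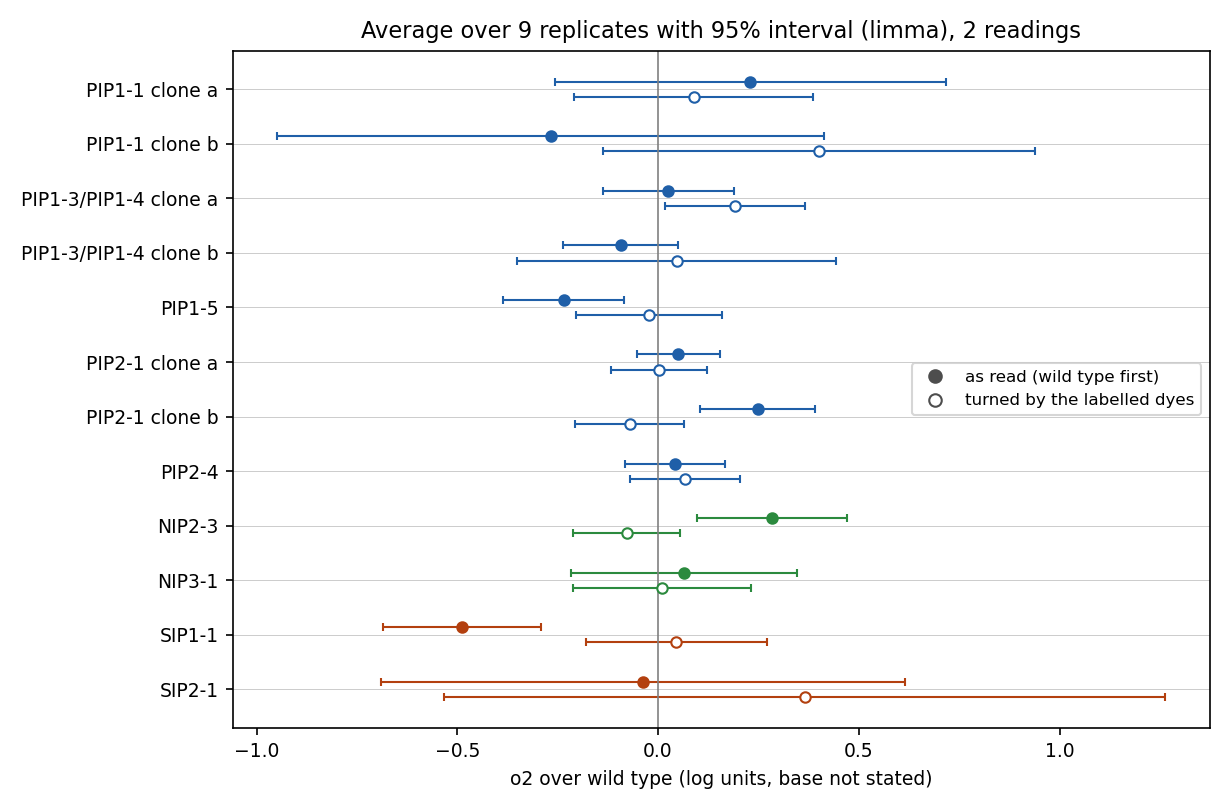
Average log ratio of o2 over wild type over 9 replicates (log units, base not stated) with its 95% interval from limma, for each aquaporin clone. Filled points are values as read with wild type first in the ratio, and open points are values turned by the labelled dyes. As read, the intervals of SIP1-1, PIP1-5, PIP2-1 clone b and NIP2-3 do not reach 0; turned by the dyes, the interval of PIP1-3/PIP1-4 clone a alone does not.

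A second question of the design was whether the lines respond to o2 differently. No aquaporin clone passed in B46 minus M14, B46 minus mixed or M14 minus mixed, nor did any clone of the array (0%). In each of these differences, 0 of 12 aquaporin clones had an unadjusted limma p under 0.05, against 9.82%, 5.28% and 5.04% of all clones. The smallest adjusted p in B46 minus M14 was that of PIP1-5, with a difference of -0.37 log units (95% interval -0.74 to 0.0015; limma adjusted p = 0.508). SIP1-1 differed by -0.35 (-0.84 to 0.13; 0.595) and NIP2-3 by -0.34 (-0.80 to 0.12; 0.594). For SIP2-1 the difference was 1.29 (-0.31 to 2.89; 0.571). These intervals are wide beside the averages, and a missed threshold does not show that the lines respond alike. By the labelled dyes no clone passed in any difference either (0%). An unadjusted limma p under 0.05 was then found for PIP1-3/PIP1-4 clone a in B46 minus mixed (17.9% of all clones) and in M14 minus mixed (17.4%), for PIP1-1 clone b in M14 minus mixed, and for 0 of 12 in B46 minus M14 (5.91%).

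Aquaporin clones with 1 sign in all 3 replicates of a comparison numbered 5 of 12 in B46, 5 in the mixed lines and 3 in M14, where 42.3%, 37.4% and 35.3% of all clones had 1 sign. In B46 PIP1-5 and SIP1-1 were below 0 throughout (20.4% of all clones were), and PIP1-1 clone b, PIP2-1 clone b and SIP2-1 above (21.9%). In M14 PIP1-3/PIP1-4 clone b and SIP1-1 were below (17.5%) and NIP2-3 above (17.9%). In the mixed lines PIP1-5 and SIP1-1 were below (19.8%), and both PIP2-1 clones and NIP2-3 above (17.6%). Among the aquaporin clones SIP1-1 alone had 1 sign over all 9 replicates, against 8.02% of all clones, 5.28% below 0 and 2.75% above. With the labelled dyes 0 of 12 did, against 0.268% of all clones. Within the comparisons, the labelled dyes gave 1 sign for 9 of 12 in M14 (44.5% of all clones), 6 in B46 (41.1%) and 1 in the mixed lines (28.5%), so the order of the comparisons depends on the direction.

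By subfamily, the mean over the 8 PIP clones was 0.03 ± 0.11 log units for B46, -0.13 ± 0.18 for M14 and 0.10 ± 0.073 for the mixed lines (SD over 3 replicates). The NIP mean was 0.05 ± 0.16 for B46, 0.29 ± 0.19 for M14 and 0.18 ± 0.33 for the mixed lines. The SIP mean was 0.10 ± 0.31 for B46, -0.37 ± 0.49 for M14 and -0.52 ± 0.66 for the mixed lines, and it joins genes that differ, since SIP2-1 swung far more than SIP1-1. By the labelled dyes the PIP mean was 0.13 for B46, 0.22 for M14 and -0.084 for the mixed lines, and the SIP mean 0.48 for B46, 0.54 for M14 and -0.40 for the mixed lines, which turns the sign of both in M14. The NIP mean was then -0.042 for B46, 0.078 for M14 and -0.14 for the mixed lines. Among the other named clones, the genes closest in values as read to the PIP mean by RMS difference over the 9 replicates were sus1, a sucrose synthase gene (0.105), ROA (0.109) and the histone deacetylase gene hda113 (0.118). Closest to the NIP mean were arf1 (0.161), the adenine nucleotide translocator gene ANT-G2 (0.169) and aic1 (0.182). Closest to the SIP mean were clones of copz2, a coatomer subunit gene (0.327), of MCM6, a subunit of the replication helicase (0.424), and of ANT-G1 (0.428).

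For SIP1-1 itself, the closest were clone a of LOC542610 (RMS difference 0.194, average -0.44), clone b of DIP1 (0.211, average -0.36) and lpa1 (0.261, average -0.51). The gene lpa1 encodes a transporter of the ABC class whose loss lowers the phytic acid of the seed. Likeness here is a description over 9 replicates that share arrays with every other clone, and it holds for values as read. By the labelled dyes, 0 of the 3 closest clones were the same for SIP1-1 and for each subfamily mean.

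Other membrane transport genes were set beside the aquaporins, 14 clones chosen by gene names of pumps and carriers. Of these, 3 were called lower in the average and 0 higher, against 4.94% and 1.97% of all clones. They were lpa1 (-0.51 ± 0.065 log units, SE, limma adjusted p = 0.00545), ANT-G1 clone b (-0.33 ± 0.061, 0.0194) and clone b of bt1, the ADP-glucose carrier of amyloplasts (-0.46 ± 0.093, 0.0267). The other clones of these genes were not called; ANT-G1 clone a stood at 0.19 and the other 3 bt1 clones between -0.38 and 0.14. In B46 lpa1 was called lower (-0.77 ± 0.13, SD, n = 3; limma adjusted p = 0.0124), as were 3.66% of all clones. The proton pump genes that energise the plasma membrane and vacuole, mha2, mha4, vpp1 and vpp3, were not called. Of these mha2 had the widest range, from -0.51 to 4.05 over the 9 replicates. Its mean in B46 was 2.69 ± 1.73 (SD, n = 3, limma adjusted p = 0.0975), with all 3 replicates above 0. The mha2 mean was 0.88 in M14 and -0.15 in the mixed lines. It averaged 1.14 (limma adjusted p = 0.178), and 1.61 when turned (limma adjusted p = 0.716). The median over the 14 clones was 0.056 in the average, against 0.034 over the aquaporin clones. By the labelled dyes, none of the 14 was called, and their median was 0.010. The 14 include MRP1 (average -0.03, not called), a name also planned as a basal transfer layer marker. Which of these genes the clone stands for was not checked.

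The named genes of cell expansion and water stress were the expansin gene expa2 and the dehydrin gene dhn2, and neither was called. Their averages were -0.18 (95% interval -0.46 to 0.10) and -0.08 (-0.21 to 0.06) log units, limma adjusted p = 0.421 and 0.498. The dye turn gave -0.47 (-0.80 to -0.14; limma adjusted p = 0.716) for expa2 and 0.11 for dhn2.

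Markers of other cells in a dissected endosperm were read beside the SIP1-1 result. For the basal transfer layer, betl2 averaged -1.10 log units and was below 0 in 9 of 9 replicates (limma adjusted p = 0.00551). The betl4 clone averaged 0.01, so 1 of 2 markers was called, where 4.94% of all clones were called lower. With the dye turn betl2 averaged -0.013 (limma adjusted p = 0.982), with 4 of 9 replicates below 0, and betl4 0.10. The other markers were not called in either reading. They were ole1 of the embryo (-0.06), dhn2 again (-0.08), PLTP of the aleurone (-0.05) and, for green maternal tissue, lhcb5 (-0.28) and Lhcb5-2 (-0.08). Of 6 clones of starchy endosperm genes, z1C1_12 and o2 were called lower, at the averages above, beside the same 4.94% of all clones. The median over the 6 clones was -0.20 (0.043 by the labelled dyes). These 6 include the mutated gene o2 and the zein genes z1C1_12 and dzs18, and z1C1_12 helped to set the direction. The calls and the median therefore cannot report on the amount of starchy endosperm. The zein gene dzs18 averaged -0.73 and the 3 clones of the starch synthase gene wx1 0.29, 0.26 and 0.02, and none of these was called. The part of the transfer layer in the SIP1-1 result was not tested.

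**Figure D4:**
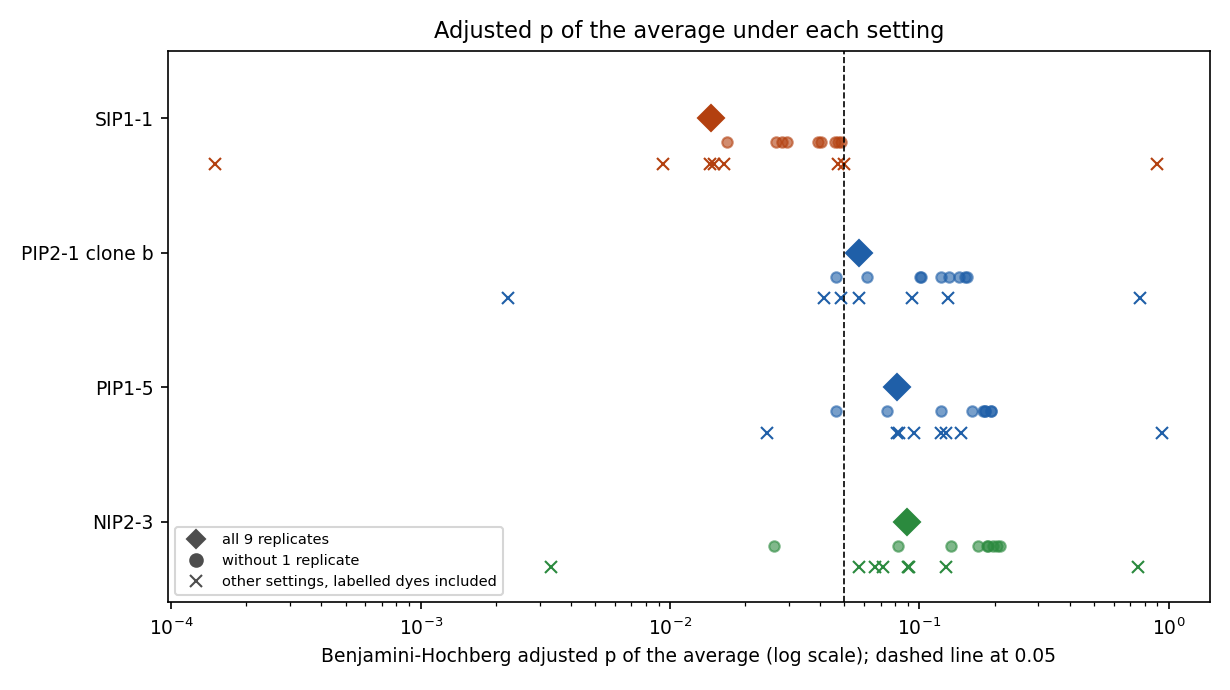
Benjamini-Hochberg adjusted p of the average (log axis) for the 4 aquaporin clones with the smallest values, under each way of processing. Diamonds are the fit on all 9 replicates, circles leave out 1 replicate, crosses are other settings, and the dashed line is at 0.05. SIP1-1 stays left of the line in every setting but the turn by the labelled dyes, while the other 3 clones cross it in 2 to 4 settings.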

How the data were processed

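Poly(A) RNA of o2 and wild-type endosperm was hybridised to 18 2-colour cDNA arrays. Per the labels, images were read with ImaGene 4.1. The deposited values are signed log ratios with a mean of 0 per array; their background correction, normalization and base are not stated there or in the file. Signal over background is unknown, so clones with a weak signal could not be picked out. Whether the most extreme single-array values came from such clones was not tested. Precision could be judged from the replicates alone. Each clone stands on 2 rows with identical values.

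The median of each array was subtracted, the sign turned to give o2 over wild type, and dye-swap partners averaged. R 4.3.3 with limma 3.58.1 fitted all 7466 clones by lmFit and eBayes (1 mean per comparison, no covariates, 6 residual and 1.51 prior degrees of freedom). A call is a Benjamini-Hochberg adjusted p under 0.05. The code was tested on simulated data.

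The platform annotation gives gene identifiers; synonyms came from a RefSeq gene table through these identifiers, which matched 9 of 9 aquaporin genes and 360 of 370 named genes. No coordinates or sequences are printed, since the array names no build. Every aquaporin clone was named, and for each subfamily mean and called clone the 3 clones of other named genes with the smallest RMS difference. Members, lists and tests were chosen with earlier results of these data known.

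Alternatives were the dye turn, no centring, scaling, trend and robust options, a replicate block, each comparison alone, leaving out each replicate, dropping values shared by many clones on an array, all 18 arrays, and averaging clones of a gene.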

Additional observations from a re-analysis of the deposited data

How the results depend on the processing

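SIP1-1 in the average was called in 16 of 16 alternatives other than the turn by the labelled dyes, with values between -0.53 and -0.43 and limma adjusted p between 0.00015 and 0.04997; the largest, just under the threshold, came with the trend and robust options. Turned by the labelled dyes it was not called and lay near 0, at 0.046 (95% interval -0.18 to 0.27, limma adjusted p = 0.896). In B46, SIP1-1 was called in 4 of 17 alternatives. The averages of PIP2-1 clone b, PIP1-5 and NIP2-3 were called in 4 of 15, 2 of 16 and 2 of 16. The number of aquaporin clones called in the average was 1, and it became 0 with the labelled dyes, 2 with no centring, 2 with scaled arrays and 4 with all 18 arrays, a fit that counts both arrays of a pair; without 1 replicate it was 1 to 2. In B46 the number was 0, and it became 1 with no centring, 1 with the clones of a gene averaged and 3 with all 18 arrays; without 1 replicate it was 0 to 1. In M14 the number was 0 and became 1 with all 18 arrays; without 1 replicate it was 0 in M14, in the mixed lines and in B46 minus M14. The cause of these changes was not tested. The median over the clones was 0.090 in B46 with the clones of a gene averaged, 0.19 in M14 with the labelled dyes, and in the mixed lines -0.10 with the labelled dyes and 0.12 with no centring. Without 1 replicate it lay between -0.038 and 0.10 in B46, -0.063 and -0.0067 in M14, 0.056 and 0.093 in the mixed lines, and 0.0033 and 0.058 in the average. Whether the replicate numbers pair the samples was not settled. Deviations of same-numbered replicates from their group means correlated between -0.034 and 0.10, over 0.1 in 1 of 9 pairs. Among replicates of the other comparisons, 5 of 9 replicates correlated best with one of their own number. With the replicate block, SIP1-1 stood at -0.49 in the average (limma adjusted p = 0.0473), and the number of aquaporin clones called was 1 in the average and 0 in B46. Over all clones, the number called in B46 was 341, against 1 without B46 replicate 1, 205 without B46 replicate 2 and 7 without B46 replicate 3. Fitted on the B46 replicates alone, it was 0. A fit on 1 comparison alone gives no value for the average or for B46 minus M14.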
